A study of Gallus gallus with 4 samples.

Results

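The distal HIF1α peaks of the chicken microchromosomes are described here. They are the listed peaks on the numbered chromosomes from 11 upward whose distance to the nearest transcription start site (TSS) was over 10 kb and up to 100 kb. By this rule 892 of the 8375 listed peaks were taken, which is 10.7% of the list (95% Wilson interval 10.0 to 11.3). They lay on 22 chromosomes, numbered 11 to 28 and 30 to 33, and made up 44.8% (42.6 to 47.0) of the 1992 peaks listed there. Another 864 of those peaks were within 10 kb of a TSS, and 236 were beyond 100 kb. The distal peaks of chromosomes 1 to 10, chosen by the same distances, numbered 3335 of 6141 and serve as the comparison.

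HIF1α binding was mapped by CUT&RUN, in which a nuclease tethered to an antibody releases the DNA fragments around a bound protein. The cells were primary lens cells of White Leghorn chick embryos at embryonic day 10, cultured on laminin and held for 4 h in 1 mM DMOG, an inhibitor of the prolyl hydroxylases that mark HIF1α for destruction. Libraries made with the HIF1α antibody numbered 2, and so did those made with IgG, which binds no particular nuclear protein; each pool of 500000 cells was split between both antibodies. All 4 libraries carried the DMOG treatment, so the peaks compare an antibody with IgG and not treated with untreated cells. Peaks were called on pooled libraries, each peak therefore has a single value with no replicate error, and the intervals below cover counting error over peaks alone. No expression was measured in these libraries, so the lens label could not be checked against marker genes, and the number of reads per library is not known from the peak list.

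HIF1 is a pair of DNA-binding proteins, HIF1α and ARNT, that recognises a short element and activates genes of glycolysis, oxygen delivery and cell survival when oxygen is low. It binds near promoters and also at distal elements, which may act on a gene other than the nearest one. Bird genomes carry, beside a few large chromosomes, many microchromosomes that are small, rich in G and C and dense in genes, with short introns and short spaces between genes. Chicken chromosome 16 is a special case, since it holds the nucleolar organiser with its ribosomal RNA repeats and the major histocompatibility complex. The lens is avascular and lives in low oxygen, for which reason HIF1 is of interest there.

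The distal microchromosome peaks fell into a large set of low, short, scattered peaks and a smaller set of tall, long, crowded ones over a high IgG background. Pileup counts the HIF1α fragments that cover a peak's summit, and its median was 9 (95% interval 9 to 10) with a range of 7 to 856. Of the 892 peaks, 51.5% (48.2 to 54.7) had a pileup of 7, 8 or 9, which is at the lowest value in the list or just above it. The same held for 61.9% of the distal peaks of chromosomes 1 to 10 and 52.4% of the microchromosome peaks within 10 kb of a TSS. Length had a median of 144 bp (140 to 147) and a range of 105 to 1815 bp. The median fold enrichment, the ratio of pileup plus 1 to background plus 1, was 3.92, with a range of 1.28 to 31.8. Only 4 peaks reached a fold of 10, and 112 were under 2. The median −log10 q was 2.30, and 264 peaks reached a −log10 q of 3, that is 29.6% of them against 26.5% of all listed peaks.

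Background is the value that the peak caller set against a peak from the IgG libraries, worked out here from pileup and fold enrichment. It is given in scaled fragments and is not a count of IgG fragments at the summit. Its lowest value in the list, the floor, was 1.30 fragments. Background stood at this floor at 44.3% of the distal microchromosome peaks, against 52.7% of the distal peaks of chromosomes 1 to 10. A background above 3 times the floor, 3.89 fragments, is called high here. It was found at 186 of the 892 peaks, 20.9% (18.3 to 23.6), where 7.94% of all listed peaks had it. The limit cuts a continuous range, with 22 peaks over 2 and up to 3 times the floor and 7 over 3 and up to 4 times. The 186 peaks had a median pileup of 83.5 over a median background of 42.1 fragments, so their median fold was only 1.85. Their median length was 278.5 bp. The other 706 peaks had a median pileup of 9, a median length of 136 bp and a median fold of 4.03. A peak over a high background needs more fragments to be listed, so pileup and background are tied by the calling itself. Of the 72 peaks with a pileup of at least 100, 71 had a high background, and so did all 40 peaks longer than 500 bp.

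**Figure D1:**
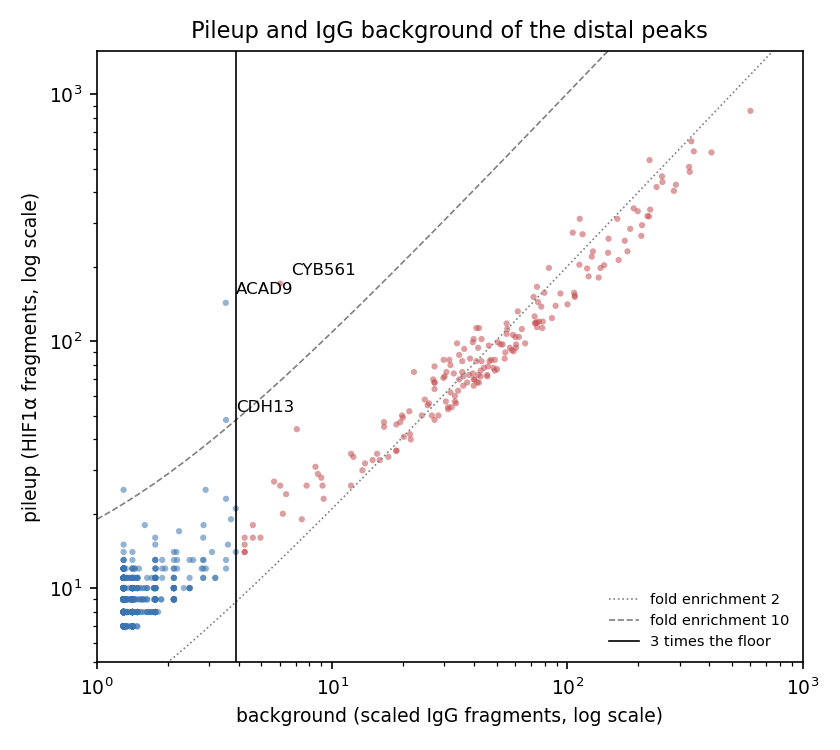
Pileup of HIF1α fragments (vertical axis, log scale) against scaled IgG background in fragments (horizontal axis, log scale) for each of the 892 distal microchromosome peaks, with blue points up to 3 times the floor and red points above it. Most red points lie near the line of fold enrichment 2, and the peaks nearest ACAD9, CYB561 and CDH13 lie above the line of fold enrichment 10.

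The strongest distal peaks with a low IgG background lay nearest genes of several kinds. First by fold was a peak of 484 bp at chr12:5625989-5626472 (galGal6), 19702 bp from the TSS of ACAD9, which encodes an assembly factor of mitochondrial complex I. Its pileup was 143 over a background of 3.53 fragments, a fold of 31.8 with a −log10 q of 166. The highest −log10 q of all, 174, belonged to a peak of 671 bp at chr27:4998894-4999564, 59687 bp from the TSS of CYB561, an ascorbate-dependent electron carrier of secretory vesicle membranes. It had a pileup of 171 with 6.01 background fragments, a fold of 24.5, so it counts as high in background although it stood far above it. These peaks were well apart from the rest, since the next fold values were 11.3 and 10.8.

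Those next values came from a peak of 339 bp at chr25:1280737-1281075, 15297 bp from the TSS of ENSGALG00000050295, and from a peak of 307 bp at chr11:15927891-15928197, 38291 bp from the TSS of CDH13. CDH13 encodes T-cadherin, a cadherin anchored to the membrane by a lipid. Pileup was 25 at the chromosome 25 peak, with background at the floor, and 48 at the CDH13 peak, with 3.54 background fragments. Another 4 peaks complete the 8 with the highest fold. They were nearest STX1A, a syntaxin of synaptic vesicle fusion, with a fold of 7.32 and a pileup of 18, nearest PHTF1 with 6.96 and 15, nearest RAB11FIP4, an effector of the recycling GTPase Rab11, with 6.67 and 25, and nearest TANC2, a postsynaptic scaffold protein, with 6.53 and 14. The STX1A peak, at chr19:311074-311256 and 23926 bp from the TSS, had a partner 129 bp away with a pileup of 11.

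Without a high background, a pileup of 20 or more was rare. Only 6 of the 706 peaks had one, namely those nearest ACAD9, CDH13, ENSGALG00000050295, RAB11FIP4, ENSGALG00000053734 with 23 fragments, and EDN2, the gene of a vasoconstrictor peptide of the endothelin family, with 21. The EDN2 peak lay 12360 bp from the TSS on chromosome 23 over a background of 3.89 fragments, at the limit of the high class, and a second peak 923 bp away had a pileup of 11. ENSGALG00000053734 and EDN2 were picked out after the values were seen.

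Ranked by −log10 q, 12 of the 15 highest peaks had a high background, whereas 1 of the 8 highest by fold did. On chromosome 16 a peak of 1034 bp, nearest ENSGALG00000044502, had a pileup of 541 and 224 background fragments, a fold of 2.41 with a −log10 q of 66.3. Of the 15, 3 more on chromosome 16 were nearest RF00002, a ribosomal RNA family of the Rfam database, with pileups of 313, 275 and 271 over backgrounds of 113, 105 and 116 fragments. On chromosome 33, 3 peaks nearest GR42L6 had pileups of 645, 465 and 421 and folds of 1.91, 1.84 and 1.76. The others were nearest ENSGALG00000053180 on chromosome 31 with a pileup of 587, ENSGALG00000050454 on chromosome 25 with 198, ENSGALG00000050409 on chromosome 33 with 441, and ENSGALG00000044502 again with 313. All of these had folds under 3, so a very low q there came with a small enrichment over many fragments. The highest pileup of all, 856, stood over 600 background fragments (fold 1.43), nearest ENSGALG00000040685 on chromosome 25.

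Peaks with a high background were unevenly spread over the chromosomes. On 9 chromosomes, numbers 16, 22, 25, 27, 28, 30, 31, 32 and 33, at least 25% of the distal peaks had one. These 9 held 215 of the 892 peaks and 134 of the 186 with a high background, which is 72.0% of them. On the other 13 chromosomes 52 of 677 peaks had a high background, 7.68%. On chromosomes 1 to 10 the share for each chromosome was between 1.08% and 7.02%. Of the 22 microchromosomes, 16 were above the pooled 4.47% of chromosomes 1 to 10, and chromosomes 17, 19 and 20 had none. Position on the chromosome went with it too, since 76 of the 94 peaks within 200 kb of base 1 or of the end of the last listed peak of a chromosome had a high background (80.9%), against 110 of the 798 peaks elsewhere (13.8%). Away from these ends and outside the 9 chromosomes, 20 of 634 peaks had one (3.15%). Both groups of positions were drawn up after the values were seen, and no test was made on them.

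**Figure D2:**
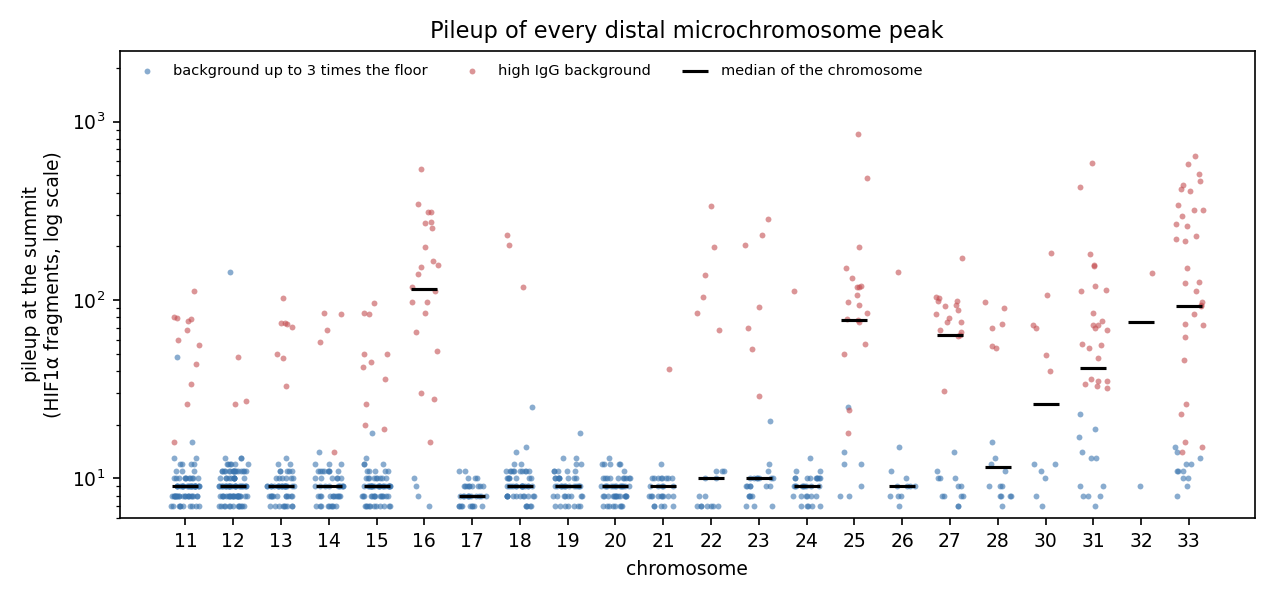
Pileup at the summit in HIF1α fragments (log scale) of each distal peak on chromosomes 11 to 33, blue up to 3 times the background floor and red above it, with a bar at the median of each chromosome. The medians lie between 8 and 10 on the 13 chromosomes with few high-background peaks and reach 115.5 on chromosome 16.

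Chromosome 12 held the most distal peaks, 103, and chromosome 11 the next most, 89. Both had a median pileup of 9, and the lowest q there was at the peaks nearest ACAD9 and CDH13. Chromosome 12 had 3 peaks with a high background (2.91%), within the range of chromosomes 1 to 10, and chromosome 11 had 12 (13.5%), above that range, with 5 of them in 1 run. Chromosome 13 had 61 distal peaks, 8 of them with a high background, and its lowest q was at a peak 67398 bp from EGR1, an immediate early transcription factor, where 102 HIF1α fragments stood over 43.1 of background. Chromosome 14 had 53, of which 5 were high, and led with a peak nearest PDXDC1 of pileup 84 over 31.5 fragments. Chromosome 15 had 76 and 11 high ones. Its leading peak, nearest ENSGALG00000055111, had a pileup of 84 over 29.8 fragments. The leading peaks of chromosomes 13 to 15 thus had a high background, although most peaks of these chromosomes did not.

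Chromosomes 17 to 21 were quiet. Chromosome 17 had 34 distal peaks, none above a pileup of 11, and led with a peak 93208 bp from the TSS of BRINP1, a neuronal gene of growth arrest, with a fold of 5.22. Chromosome 18 had 57 peaks with 3 high ones and led with the RAB11FIP4 peak. Chromosome 19 had 47 peaks with a highest pileup of 18, at STX1A. Chromosome 20 had 53 with a highest pileup of 13, and its lowest q was 48084 bp from the TSS of EIF2S2, a subunit of a translation initiation factor, at a pileup of 12. Chromosome 21 had 29, of which 1 was high, and led with a peak nearest LACTBL1 that also had a pileup of 12. On these 5 chromosomes almost every distal peak was thus a low peak over a low background.

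From chromosome 22 upward the picture was mixed. Chromosome 22 had 20 distal peaks with 6 high ones, and its lowest q was nearest AAK1, a kinase of clathrin endocytosis, with a pileup of 336 over 199 fragments. Chromosome 23 had 30 peaks with 7 high ones and led with a peak that started at base 419 of the chromosome, nearest ENSGALG00000046754, with a pileup of 231 over 128 fragments. Chromosome 24 had 33 peaks with 1 high one, and its leading peak was 24849 bp from the TSS of DSCAML1, a cell adhesion molecule of neurons, with a pileup of 13 over the floor. Chromosome 26 had the lowest density, 12 peaks or 2.19 per Mb (exact 95% Poisson interval 1.13 to 3.83). It held 1 high peak, nearest ENSGALG00000046261, with a pileup of 144 and a fold of 1.91. Chromosome 28 had 18 peaks with 6 high ones, yet its lowest q was at a plain peak 21102 bp from the TSS of FBN3, a fibrillin of the extracellular matrix, with a pileup of 12.

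The highest median pileups belonged to the chromosomes that remain. Chromosome 16 had 26 distal peaks, 22 of them high, a density of 9.20 per Mb (6.01 to 13.5) and a median pileup of 115.5. Chromosome 33 had 45 peaks with 33 high ones and a median pileup of 92. Chromosome 25 had 26 with 19 high ones and a median of 77.5. Chromosome 27 had 30 with 17 high ones and a median of 63.5, and beside the CYB561 peak it held the TANC2 peak over the floor. Chromosome 31 had 36 with 24 high ones and a median of 41.5. Chromosome 30 had 12 with 6 high ones, led by a peak nearest ENSGALG00000051260 with a pileup of 106 over 58.7 fragments. Chromosome 32 had only 2, and the one with the lower q, nearest ENSGALG00000034282, had a pileup of 9. The peaks of these chromosomes without a high background stayed low, and over all 22 chromosomes the median pileup of such peaks was between 7.5 and 12.

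**Figure D3:**
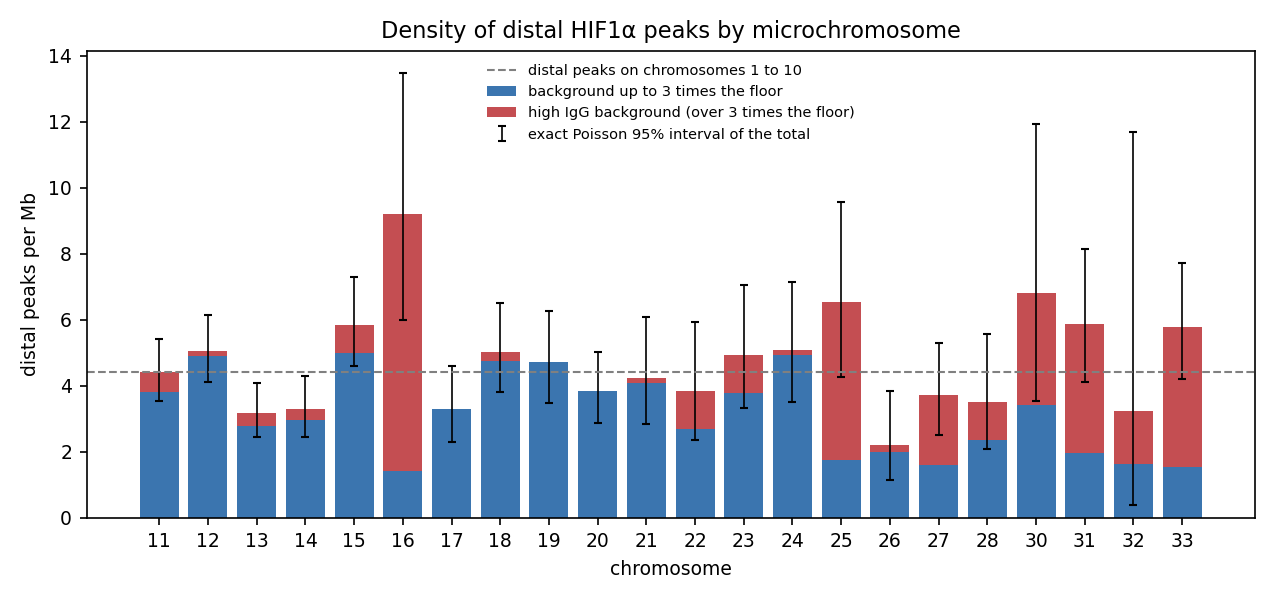
Distal peaks per Mb on each microchromosome, with peaks up to 3 times the background floor in blue, peaks with a high IgG background stacked in red, and the exact 95% Poisson interval of the total as a black bar. The totals run from 2.19 on chromosome 26 to 9.20 on chromosome 16, around the dashed line at 4.41 for chromosomes 1 to 10.

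The density of distal peaks on microchromosomes, set against that on the larger chromosomes, changed direction with the peaks that were counted. Over all of them it was 4.45 per Mb (4.16 to 4.75) over 200.58 Mb, against 4.41 (4.26 to 4.56) on chromosomes 1 to 10. The ratio was 1.01 (0.936 to 1.09), with a two-sided exact binomial p of 0.806. Lengths were taken from the end of the last listed peak of each chromosome. They cover whole chromosomes and not only the sequence 10 to 100 kb from a TSS, whose extent was not measured. Without high-background peaks the density was 3.52 per Mb, against 4.21 on chromosomes 1 to 10, a ratio of 0.836 (0.770 to 0.907, exact binomial test, Benjamini-Hochberg adjusted p = 4.66e-05). This ratio follows from the overall ratio of 1.01 and the larger share of high-background peaks on microchromosomes, so it is no separate result. Counting only peaks that reached a −log10 q of 3 gave a ratio of 1.21 (exact binomial test, adjusted p = 0.00951), and with distances up to 50 kb it was 1.13 (exact test, adjusted p = 0.00945). Of the peaks that reached this q, 38.3% on microchromosomes had a high background, against 10.1% on chromosomes 1 to 10.

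In the comparison with the distal peaks of chromosomes 1 to 10, the microchromosome peaks had more often a high background, a high pileup, a greater length and a close neighbour. Each share was compared by a two-sided Fisher's exact test that takes peaks as independent. In this main comparison p-values were adjusted by the Benjamini-Hochberg method over 8 tests. Where peaks were limited by −log10 q or by background, adjustment was over the tests that remained. Peaks were not independent, since 84.4% of the high-background peaks had another listed peak within 10 kb. The intervals and p-values of shares and densities therefore overstate the precision. With peaks within 1 kb merged, odds ratios were 4.52 for high background, 4.12 for pileup, 1.69 for length, 1.16 for −log10 q and 1.62 for neighbours. A high background was found at 20.9% of the microchromosome peaks, against 4.47% on chromosomes 1 to 10, an odds ratio of 5.63 (4.44 to 7.14, exact test, adjusted p = 9.88e-47). A pileup of at least 20 was found at 20.6% on microchromosomes, against 4.71% on chromosomes 1 to 10, with an odds ratio of 5.26 (4.16 to 6.65, exact test, adjusted p = 5.12e-44), where 8.12% of all listed peaks had one. Lengths over 200 bp were found at 22.8% on microchromosomes, against 12.5% on chromosomes 1 to 10, an odds ratio of 2.06 (1.70 to 2.49, exact test, adjusted p = 5.49e-13), where 15.2% of all listed peaks were that long. A −log10 q of at least 3 was found at 29.6% on microchromosomes, against 24.7% on chromosomes 1 to 10, an odds ratio of 1.28 (1.08 to 1.51, exact test, adjusted p = 0.00449).

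Among peaks without a high background none of the last 3 differences passed the test. There a pileup of at least 20 was found at 0.850% of the microchromosome peaks, against 0.628% on chromosomes 1 to 10, an odds ratio of 1.36 (0.444 to 3.52, Fisher's exact test, adjusted p = 0.697). A length over 200 bp was found at 11.9% on microchromosomes, against 11.2% on chromosomes 1 to 10, an odds ratio of 1.07 (0.821 to 1.38, exact test, adjusted p = 0.700). A −log10 q of at least 3 was found at 23.1% on microchromosomes, against 23.3% on chromosomes 1 to 10, an odds ratio of 0.990 (0.811 to 1.21, exact test, adjusted p = 0.961). The median pileup was 9 in both sets. Leaving out a class defined by background also takes away most high pileups, for the reason given above.

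**Figure D4:**
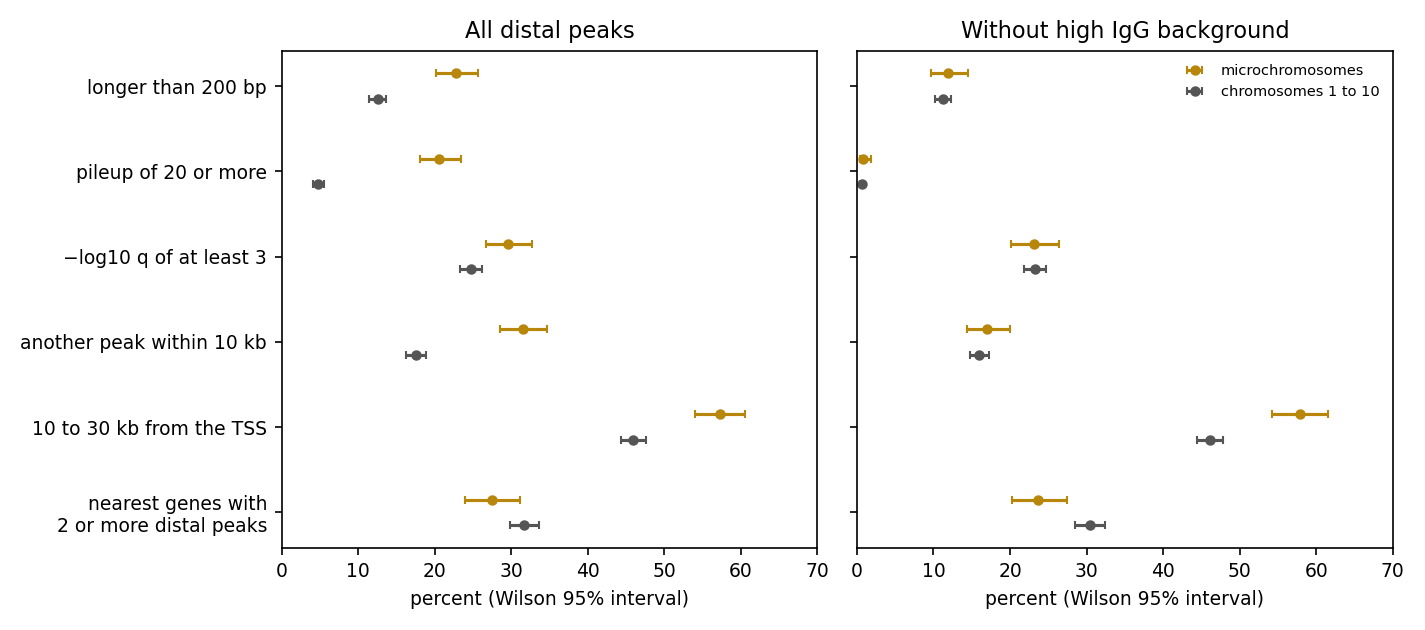
Shares in percent with 95% Wilson intervals for distal peaks of the microchromosomes (gold, upper point of each pair) and of chromosomes 1 to 10 (grey, lower point), for all distal peaks on the left and without high-background peaks on the right. Distances of 10 to 30 kb are more frequent on microchromosomes in both panels (57.3% against 46.0% on chromosomes 1 to 10 in the left panel), whereas the shares for length, pileup, q and neighbours draw together on the right.

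Distance to the TSS is a measure by which the peaks were chosen, in the same window on all chromosomes, so its values are given as a description. The median was 26264.5 bp (24948 to 27588), against 32531 bp on chromosomes 1 to 10. Of the microchromosome peaks 511 were 10 to 30 kb from the TSS, 57.3% against 46.0% on chromosomes 1 to 10. Without high-background peaks the shares were 57.9% on microchromosomes, against 46.1% on chromosomes 1 to 10. Pileup hardly moved with distance, since its median was 9 at 10 to 20 kb, 10 at 20 to 30 kb, 9 at 30 to 50 kb and 10 at 50 to 100 kb. By chromosome the median distance lay between 12337 bp on chromosome 32, which had 2 peaks, and 51430 bp on chromosome 27. The peaks just inside the nearer limit were 10049 bp from MYOCD, a coactivator of smooth muscle genes, and 10060 bp from ENSGALG00000005896, and those just outside it were at 10000 and 9972 bp. At the farther limit, peaks at 99489 bp (SHCBP1) and 98809 bp (COL26A1) were just inside, and peaks at 100176 bp (ASIC2) and 101254 bp (FAM20C) were just outside. The values inside were pileups of 9, 7, 9 and 11, and those outside were 19, 61, 11 and 8.

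Close spacing was more frequent among the high-background peaks. Another listed peak within 10 kb was found at 84.4% of them, against 17.6% of the other microchromosome peaks, which is 124 of 706. Of the 892 peaks 281 had another listed peak within 10 kb, 31.5% against 17.6% on chromosomes 1 to 10, an odds ratio of 2.16 (1.82 to 2.56, Fisher's exact test, adjusted p = 3.46e-18), where 21.0% of all listed peaks had one. Among the 281, 157 had a high background (55.9%), against 29 of the 611 peaks with no such neighbour (4.75%). The median gap to the nearest listed peak was 910 bp for high-background peaks and 36552 bp for the others. When high-background peaks were left out on both sides, 17.0% of the microchromosome peaks had a neighbour within 10 kb, against 15.9% on chromosomes 1 to 10, an odds ratio of 1.08 (0.860 to 1.35, exact test, adjusted p = 0.697). Within 1 kb of another listed peak lay 131 of the 892.

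Runs of distal peaks, each within 10 kb of the next, numbered 88 and held 264 peaks. Those of 5 or more peaks numbered 11 and held 86, every one with a high background. The longest had 14 peaks over 39.3 kb at chr31:54235-93531, close to base 1, nearest ENSGALG00000047178 and ENSGALG00000050090, with a median pileup of 64. A run of 11 peaks over 9.36 kb at chr27:8067485-8076848 was nearest MPP2, a scaffold protein of the membrane-associated guanylate kinases, with a median pileup of 83. The other run of 11, over 24.8 kb at chr33:3536717-3561545, was nearest GR42L6 and had a median pileup of 341. On chromosome 16, 9 peaks over 12.6 kb were nearest RF00002 and ENSGALG00000044502, with a median of 275. Of the 11 runs the MPP2 run had the highest median fold, 2.30, so all were stretches of high pileup over a high background.

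The 892 peaks were nearest 594 gene entries, where an entry is a gene, or several genes listed together, on a chromosome. Of these, 431 had a single distal peak, 108 had 2 and 25 had 3. At least 2 distal peaks were found at 163 entries, 27.4% against 31.7% on chromosomes 1 to 10, an odds ratio of 0.814 (0.661 to 0.999, Fisher's exact test, adjusted p = 0.0524). Without high-background peaks it was 23.7% on microchromosomes, against 30.4% on chromosomes 1 to 10, an odds ratio of 0.710 (0.566 to 0.887, exact test, adjusted p = 0.00500). The direction was not stable. Counting only peaks that reached a −log10 q of 3, the share was 19.4% on microchromosomes, against 10.5% on chromosomes 1 to 10, an odds ratio of 2.04 (Fisher's exact test, adjusted p = 0.00244). Of the distal peaks that reached this q, 38.3% on microchromosomes had a high background, against 10.1% on chromosomes 1 to 10. A neighbour within 10 kb was found at 36.4% and 7.40% of them. With distances up to 50 kb the odds ratio was 1.04 (adjusted p = 0.757 by the same exact test). Most entries, 428 or 72.1%, had no listed peak within 10 kb or beyond 100 kb, and 46 (7.74%) also had one within 3 kb of their TSS. These 2 shares were not worked out for chromosomes 1 to 10 or for all listed peaks, so they mark no trait of this part. The nearest gene was given by a symbol at 553 peaks, of which 11.2% had a high background, and by an Ensembl identifier alone at 221, of which 49.3% did. It was a microRNA at 45 peaks, none of them with a high background.

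**Figure D5:**
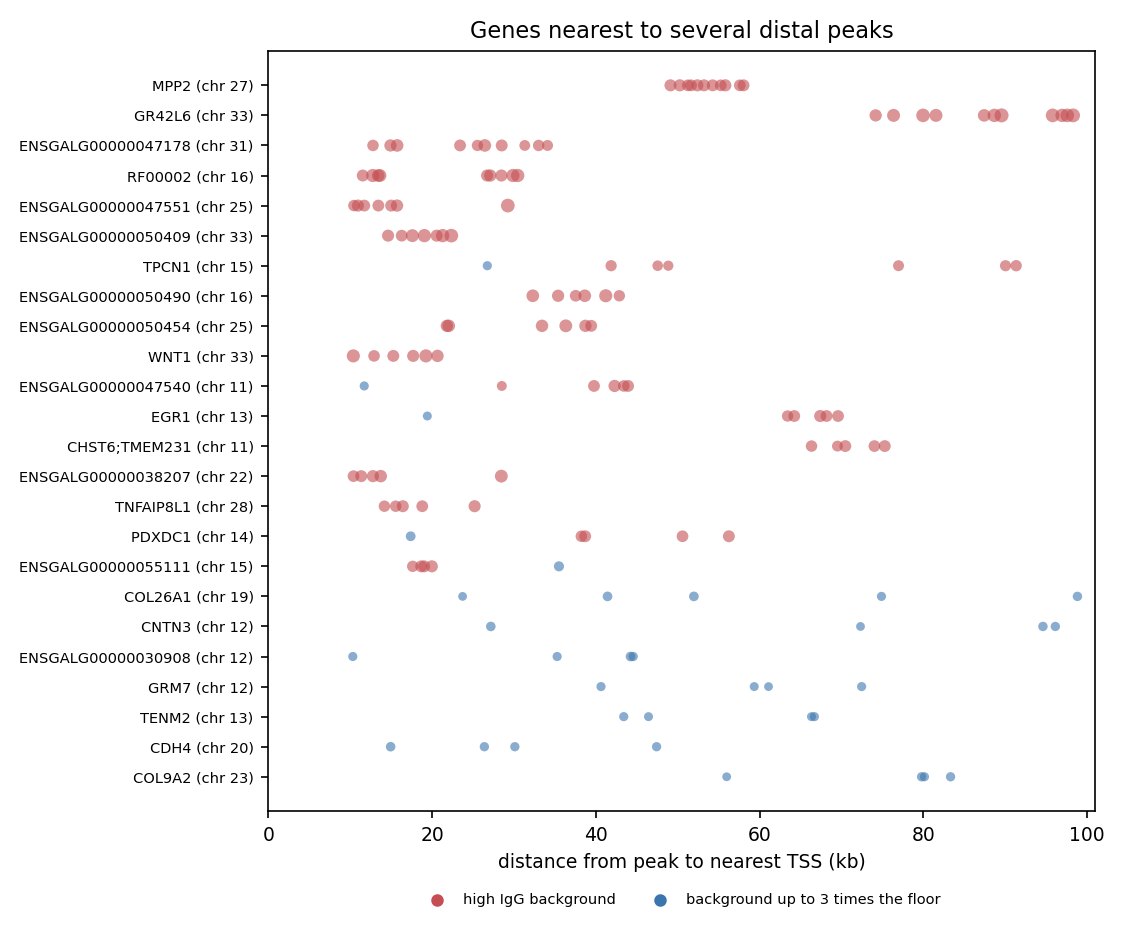
Distance from peak to TSS in kb of each distal peak for the 18 gene entries with at least 5 such peaks and the 6 with 4 peaks and no high background, in red for a high IgG background and blue for the rest, with larger points for a higher pileup. Red points stand close together, as at MPP2, and the blue points of COL26A1 spread from 23729 to 98809 bp.

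The 18 entries with 5 or more distal peaks held 122 peaks, of which 112 had a high background. MPP2 and GR42L6 had 11 each, ENSGALG00000047178 had 10 and RF00002 had 9. TPCN1, an endolysosomal cation channel on chromosome 15, had 7, with pileups from 9 to 50, and 6 of them were high. ENSGALG00000047551 on chromosome 25 and ENSGALG00000050409 on chromosome 33 had 7 each. EGR1 and WNT1 had 6 each. EGR1 had 1 quiet peak of pileup 8 at 19424 bp and 5 tall ones with pileups of 50 to 102 that lay 63411 to 69574 bp away. The 6 peaks nearest WNT1, a secreted signalling protein, lay 10386 to 20665 bp from the TSS on chromosome 33 and had pileups of 62 to 267 over backgrounds of 31.8 to 206 fragments. ENSGALG00000047540, ENSGALG00000050490 and ENSGALG00000050454 also had 6. With 5 peaks each stood the joint entry of CHST6, a sulfotransferase of keratan sulfate, and TMEM231, a protein of the ciliary base, together with PDXDC1, TNFAIP8L1, ENSGALG00000055111, ENSGALG00000038207 and COL26A1.

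COL26A1, a collagen gene on chromosome 19, was the single entry of the 18 with no high-background peak. Its 5 peaks had pileups of 7, 13, 13, 9 and 11 at distances of 23729, 41427, 51971, 74879 and 98809 bp, with backgrounds from 1.30 to 1.77 fragments. They were spread over 75.2 kb, with no neighbour closer than 10319 bp. At 6 more entries all 4 distal peaks were without a high background. They were CNTN3, a contactin, GRM7, a metabotropic glutamate receptor, TENM2, a teneurin, CDH4, the gene of R-cadherin, COL9A2, a chain of collagen IX, and ENSGALG00000030908. These 6 were picked out after their values were seen. Pileups were 7, 12, 11 and 10 at CNTN3, 10, 10, 12 and 10 at CDH4, and 9, 8, 9 and 8 at TENM2. Several of these peaks stood in close pairs, 246 bp apart at TENM2, 222 bp at COL9A2 and 172 bp at ENSGALG00000030908.

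For gene families, the share of genes with a distal peak among those with any peak on a microchromosome can be read beside the same share over all gene names there, 636 of 1392 or 45.7%. Among known HIF target genes it was 3 of 10. These were ENO1 and GPI, enzymes of glycolysis, and BHLHE40, a transcriptional repressor, with 2 distal peaks each. The ENO1 peaks, 28409 and 22439 bp from the TSS on chromosome 21, both had a pileup of 10. At BHLHE40 the pileups were 8 and 9, and at GPI both were 9, 27199 and 28766 bp from the TSS. None of the 6 peaks had a high background, and none reached a −log10 q of 3. A high background was found at 11.2% of the distal microchromosome peaks nearest a gene given by symbol, and at 7.94% of all listed peaks. These shares can be read beside the family counts of high background below as well. A −log10 q of 3 was reached by 29.6% of all distal microchromosome peaks, and 6 peaks are few beside these shares. Among lens genes the share with a distal peak was 4 of 8. MAF, a transcription factor of lens fibre cells, and BMP7, a growth factor of eye development, had 1 peak of pileup 8 each. The peak 21383 bp from CRYBB1, a beta crystallin, had a pileup of 19 over 7.43 fragments, a fold of 2.37.

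In this count 6 families stood above the 45.7% of all gene names. They were adhesion (80%), development regulator (76%), matrix (75%), ion channel (67.9%), growth factor (54.5%) and lens genes (50%). Solute carriers (45.5%), chromatin regulators (31.8%) and HIF target genes (30%) stood below it. The 45.7% covers Ensembl identifiers and microRNAs too, whereas the lists hold named genes. Of the homeobox, SOX, FOX, PAX, GATA and related transcription factors, 19 of 25 genes had a distal peak, with 27 peaks in all, none of high background and 11 that reached a −log10 q of 3 (40.7%, beside 29.6% of all distal microchromosome peaks and 26.5% of all listed peaks). The lowest q was at EBF1, 47948 bp away with a pileup of 12. KLF2, a factor of endothelial cells, had a peak of pileup 16 at 10335 bp, SOX8 and TBX2 had peaks of pileup 11 at 14683 and 14065 bp, and FOXP3 had 2 peaks of 10 and 11. CUX1, EBF2 and ETS1 each led with a pileup of 10. Of the cadherin, adhesion and guidance genes, 20 of 25 had one, with 37 peaks, none of high background and 11 that reached a −log10 q of 3, which at 29.7% is near the same shares. Beside CDH13, DSCAML1, CDH4 and CNTN3 these were led by UNC5D, a netrin receptor, with a pileup of 11 at 14263 bp, by CDH11, a mesenchymal cadherin, with 13 at 34352 bp, and by CDH22 and KIRREL3 with 9 each.

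Among matrix, integrin and metalloprotease genes 12 of 16 had a distal peak, with 21 peaks and none of high background. After COL26A1 and FBN3 came ADAMTS15, a secreted protease, with a pileup of 10 at 10555 bp, COL9A2 with 10, and FBLN2, a fibulin, with 11 at 12959 bp. ADAMTS2, which trims procollagen, AGRN, the gene of agrin, and COL5A1, a chain of collagen V, had 9 each. Of the ion channel genes 19 of 28 had one, with 23 peaks that reached pileups of 7 to 11. ASIC2, an acid-sensing channel on chromosome 27, had 3 with pileups of 11, 10 and 8. ITPR1, the calcium release channel of the endoplasmic reticulum, and CACNA2D2, a calcium channel subunit, had 1 of 11 each, and GJB5, a connexin, and KCNJ2, an inward rectifier, had 1 of 10 each. GRIA1, KCNG4 and KCNIP1 had 9 each.

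Growth factor and signalling genes with a distal peak numbered 6 of 11, with 14 peaks, of which the 6 at WNT1 had a high background. PDGFA, a platelet-derived growth factor chain, had 3, with pileups of 7, 7 and 11 at 37657, 15938 and 13843 bp. FGF18 led with 11 at 84455 bp, HES4, a Notch target, had 10 at 10474 bp, and WNT5A had 8 at 21724 bp. Solute carriers numbered 10 of 22, with 11 peaks. SLC38A8, an amino acid transporter, led with a pileup of 16 and a fold of 6.14 at 19028 bp, followed by SLC25A26 and SLC7A10 with 10 each. SLC16A1, the monocarboxylate transporter that carries lactate, SLC25A33 and SLC6A6, the taurine transporter, had 9 each, and SLC5A1 had 8. Chromatin regulators numbered 7 of 22, with 8 peaks. Among them were NCOA3, a nuclear receptor coactivator, with a pileup of 12, HDAC11 with 11, HDAC7 and KDM8 with 8, SETD5 with 9, and KDM3B, listed jointly with REEP2, with 7. A −log10 q of 3 was reached by 6 of 21 peaks at matrix genes (28.6%), 5 of 23 at ion channel genes (21.7%) and 6 of 14 at growth factor genes (42.9%). The growth factor count includes high-background peaks at WNT1, where −log10 q ran from 1.81 to 11.5. This limit was reached by 1 of 11 peaks at solute carriers (9.09%) and 2 of 8 at chromatin regulators (25%). At lens genes it was reached by 0 of 4, and at HIF target genes by 0 of 6. Over all distal microchromosome peaks the share was 29.6%, and over all listed peaks 26.5%. The family counts are small, and no test was made of them.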

How the data were processed

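Trimming, alignment to galGal6, filtering to short fragments and peak calling were done by the authors with Trimmomatic, Bowtie2, SAMtools and MACS2; versions are not given in the sources used here. The authors pooled the libraries of each antibody before they called narrow peaks over IgG, so no column is of 1 library, and 0 per-sample columns were left unmatched. The pileup was deposited as a signal in HIF1α fragments, the fold enrichment as a ratio by the authors, and the p and q values as −log10 by the authors, with a highest q of 0.0496. Nearest gene and unsigned TSS distance were also the authors'. Positions are in bp on galGal6, counted from 1.

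Peaks were taken by chromosome and distance. Background was computed by dividing pileup plus 1 by the fold enrichment and taking 1 away. Shares were compared by two-sided Fisher's exact tests with sample odds ratios and conditional intervals, and density by an exact binomial test. In the main comparison p-values were adjusted over 8 tests, among them one of distance that is given as shares only. Where peaks were limited by −log10 q or by background, the test of that share was dropped and adjustment was over the tests that remained. Shares have Wilson, medians rank and densities exact Poisson intervals. The tests were tried on simulated data. Named peaks were the 15 with the highest −log10 q, the 8 with the highest fold, the highest −log10 q on each chromosome, entries with 5 or more peaks, up to 8 genes for each list, and the 2 peaks on each side of each distance limit; further names are marked in the text, and a few genes that the rule names are not reported here. The members and gene lists were chosen with earlier results of these data known. Exon, intron, sequence, motif and open chromatin were not analysed here. Alternatives were other limits for q, fold, distance, length, pileup, background and spacing, other sets of chromosomes, and merging of peaks. Python 3.11.15, pandas 2.3.3, NumPy 2.4.6, SciPy 1.17.1 and matplotlib 3.10.9 were used.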

Additional observations from a re-analysis of the deposited data

How the results depend on the processing

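Alternatives of the tested results numbered 83. Of these, 50 kept direction and side of the threshold, 11 lost the call, 10 gained one and 12 reversed direction. The 50 include all alternatives of the share at 10 to 30 kb, which say nothing on stability because distance was used to choose the peaks. Of 50 alternatives of medians, 39 stayed within the interval of the median. Values below are odds ratios or, for density, ratios of microchromosomes over chromosomes 1 to 10. With a −log10 q of at least 3 there were 264 peaks, density was 1.21 and genes with 2 or more peaks 2.04. With a fold of at least 3, high background was 1.43, −log10 q 0.992, length 1.09, pileup 1.23, neighbours 1.12, genes 0.710 and density 0.839. Background was worked out from pileup and fold, so this cut itself takes away most high-background peaks. It left them at 1.82% on microchromosomes and 1.27% on chromosomes 1 to 10. Merging peaks within 1 kb gave −log10 q 1.16, genes 0.749 and density 0.937. Distances up to 50 kb gave −log10 q 1.19, genes 1.04 and density 1.13. Chromosomes 11 to 28 alone gave high background 3.86, pileup 3.66, −log10 q 1.18, genes 0.795 and density 0.981. Without chromosome 16, genes were 0.793 and density 0.994, and against chromosomes 1 to 5 genes were 0.785. Without high-background peaks, −log10 q was 0.990, length 1.07, pileup 1.36, neighbours 1.08, genes 0.710 and density 0.836. Another 2 alternatives were chosen after seeing the data. Leaving out the 9 chromosomes with many high-background peaks gave high background 1.78, pileup 1.72, −log10 q 0.998, length 1.20, genes 0.745 and density 0.966. Leaving out the peaks within 200 kb of chromosome ends gave high background 3.67, pileup 3.49, genes 0.796 and density 0.911. That last density kept the full chromosome lengths, so its peaks and its lengths do not cover the same sequence. The causes were not tested. The share at 10 to 30 kb was higher on microchromosomes under each alternative run, which is a description only, since distance was used to choose the peaks. No paired analysis was possible because the list was made on pooled libraries and no column carries a replicate; for the same reason no replicate could be left out. The motif and open chromatin comparisons were not run. At the background floor a peak needed 7 fragments to be listed, so weaker binding was not detectable.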

Other observations

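High IgG background was less frequent nearer to genes on the same chromosomes. It was found at 20.9% (Wilson interval 18.3 to 23.6) of the 892 distal microchromosome peaks, against 7.41% (5.84 to 9.35) of the 864 microchromosome peaks within 10 kb of a TSS. A −log10 q of at least 3 was about as frequent, at 29.6% of the distal peaks, against 30.4% of the peaks within 10 kb. A fold of at least 10 was reached by 4 distal peaks, against 8 of the peaks within 10 kb. No test was made of these values, which were looked at after the main comparisons.

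Among the 46 gene entries with both a distal peak and a listed peak within 3 kb of the TSS were ENO1, an enzyme of glycolysis, SLC16A1, a lactate carrier, and MAF, a transcription factor of lens fibre cells, named here after their values were seen. The count of 46 has no share from chromosomes 1 to 10 beside it. FOXP3 and TSHZ3 had 2 distal peaks and 2 within 3 kb each, with distal pileups of 10 and 11 at FOXP3 and of 8 and 9 at TSHZ3. BRINP1 and UNC5D had 3 distal peaks and 1 within 3 kb. MicroRNA genes were nearest to 45 distal peaks, and gga-mir-6595 on chromosome 11 had 3 of these, with pileups of 9, 8 and 9.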
